A study of Mus musculus with 2 samples.

Results

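The 10 genes described here belong to the BCL2 family, the proteins that decide whether a cell opens its mitochondria and dies. They are Bcl2, Bcl2l1, Mcl1 and Bcl2l10 (pro-survival), Bax and Bak1 (effectors), and Bcl2l11, Bbc3, Pmaip1 and Bid (BH3-only). They were taken by name, with no use of their measured values, and all 10 were among the 21018 genes found in both count tables. Their levels were read in germ, granulosa and stroma cells of the mouse ovary at postnatal day 3, when oocytes are being enclosed in primordial follicles.

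BH3-only proteins sense stress and either block the pro-survival members or activate the effectors. Freed effectors form pores in the outer mitochondrial membrane, cytochrome c leaks out, and APAF1 and the caspases take the cell apart. In the newborn ovary this pathway is known for the loss of many oocytes around the time follicles form, and for the death of oocytes with DNA damage, in which p63 and p53 switch on Bbc3 and Pmaip1.

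The study asked what melatonin (MLT) does in the ovaries of pups whose mothers were exposed to DEHP, a phthalate plasticizer, while primordial follicles formed. C57BL mothers were dosed from E16.5, late in gestation, to postnatal day 3. In the DEHP_MLT group they received DEHP by oral gavage in the morning and MLT in the late afternoon, and the MLT group had the same MLT with DMSO instead of DEHP. Both groups thus received melatonin, and no group without melatonin was analysed here. Each group is 1 library of the 10x Genomics 3′ single-cell assay, and how many pups or ovaries went into it is not given in these sources. With 1 library per group there is no replicate spread, and no test was made. The labels also conflict, because the count table deposited under the title MLT is itself named DEHP_MLT, and the other count table is named MLT. The titles were followed, and every direction between the libraries would reverse if they are wrong.

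The library labelled MLT held 5199 cells after filtering and the library labelled DEHP_MLT 4819, with 4 barcode sequences in common and lowest totals of 2031 and 6923 UMIs per cell. Cells were assigned by marker genes. Germ cells (Dazl, Sycp3, Figla) numbered 216 and 707, with medians of 14041.5 and 57917 UMIs (unique molecular identifiers, each 1 captured transcript). Granulosa cells, the supporting cells of the follicle (Fst, Hsd3b1, Inha, Aard), numbered 634 and 346, and collagen-rich stroma cells (Col1a1, Col1a2, Col3a1, Dcn) 2768 and 2048. Markers left out of the assignment went the same way: the summed level of Ddx4, Nobox and Sohlh1 was 8.93 and 8.69 per 10,000 UMIs in germ cells and at most 0.716 in the other 2 classes. Foxl2, Amhr2, Kitl and Wt1 summed to 17.0 and 15.2 in granulosa cells, 5.09 and 4.42 in stroma and at most 1.19 in germ cells. Pdgfra, Lum and Tcf21 summed to 6.39 and 7.0 in stroma and at most 0.32 elsewhere. Germ markers stood in stroma at 3.55% and 3.34% of their germ-cell level, and the source of these UMIs was not tested.

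All levels below are UMIs of a gene per 10,000 UMIs of all cells of that class in 1 library, with exact Poisson 95% intervals that cover counting error only. They are not divided by transcript length, so a gene is compared between cells and not with another gene. Fewer transcripts per cell and more transcripts of other genes cannot be told apart in such levels. Where 2 values are joined by "and", the first is from the library labelled MLT and the second from the library labelled DEHP_MLT.

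The cell classes differed in which pro-survival and effector genes they carried, and they did so in both libraries alike. Germ cells were high in Bax and Bcl2l10 and low in Bcl2, Mcl1 and Bak1, while granulosa and stroma cells had the reverse pattern. Bax supplied 59.4% and 63.6% of the UMIs of the 10 genes in germ cells, against 22.7% and 25.3% in granulosa and 20.8% and 23.1% in stroma cells. Between germ and granulosa cells 6 of the 10 genes were at least 2-fold apart with separate intervals in both libraries, 3 each way, against 44.1% of the 13759 genes that could be compared (18.9% higher in germ and 25.1% higher in granulosa cells). Between germ and stroma cells 7 of 10 were, 3 higher in germ and 4 in stroma cells (45.1% of 14273 genes, 21.8% and 23.3%). Between granulosa and stroma cells 3 of the 9 genes with enough UMIs were, 2 higher in granulosa and 1 in stroma cells (19.7% of 13875 genes, 10.6% and 9.17%).

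**Figure D1:**
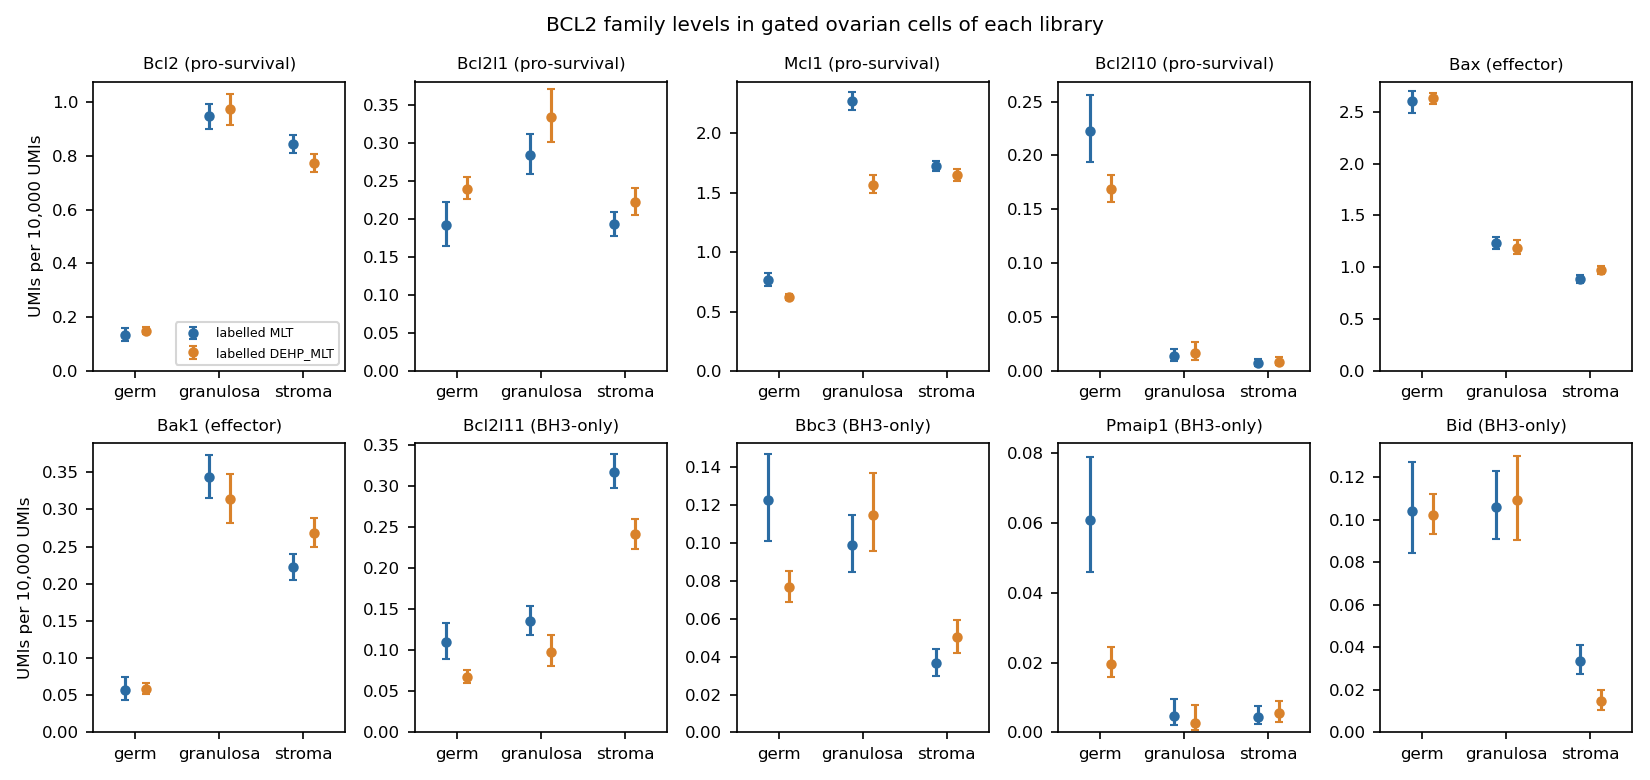
Levels of the 10 genes (UMIs per 10,000 UMIs, vertical axes starting at 0 and differing between panels) in germ, granulosa and stroma cells, with points for the library labelled MLT (blue) and the library labelled DEHP_MLT (orange) and bars for exact Poisson 95% intervals. Bax and Bcl2l10 are highest in germ cells and Bcl2 and Bak1 lowest there, in both libraries.

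Among the pro-survival genes, Bcl2, the founding member of the family, was lowest in germ cells of the 3 classes. Its level was 0.133 (0.111 to 0.159) and 0.15 in germ cells, 0.946 and 0.973 in granulosa cells and 0.843 and 0.774 in stroma cells. Granulosa cells were thus 6.67-fold and 6.16-fold above germ cells on the scale of level plus 0.01, and the 3 classes did not overlap in either library. After each cell was thinned to 5000 UMIs and shallower cells were left out, 8.16% of 147 and 7.5% of 707 germ cells held a Bcl2 UMI, against 34.6% of 586 and 36.7% of 346 granulosa cells. Without thinning the shares were 33.3% and 52.6% of germ cells and 68.6% and 77.5% of granulosa cells. The Bcl2 level of germ cells was 14.1% and 15.4% of the granulosa level, whereas the granulosa markers themselves stood in germ cells at 4.19% and 5.47% of theirs.

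Bcl2l10, which is known in mouse mainly from oocytes, was highest in germ cells. Its level was 0.223 (0.194 to 0.256) and 0.169 (0.157 to 0.182) in germ cells, 0.0138 and 0.0169 in granulosa cells, and 0.00748 and 0.00837 in stroma cells. The stroma value is 3.35% and 4.95% of the germ-cell value, where germ markers stood at 3.55% and 3.34%, and the granulosa value is 6.19% and 10.0%, where germ markers stood at 4.28% and 6.79%. At 5000 UMIs per cell, 10.9% and 6.51% of germ cells held a Bcl2l10 UMI against 0.565% of 2480 and 0.342% of 2048 stroma cells, and without thinning the shares were 39.8% and 48.9% against 0.795% and 1.12%.

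Mcl1, a short-lived pro-survival protein on which many cell types depend, was lowest in germ cells of the 3 classes. It stood at 0.769 and 0.622 in germ cells, 2.27 and 1.57 in granulosa cells and 1.73 and 1.65 in stroma cells. The order of granulosa and stroma cells was not the same in the libraries: granulosa cells were higher in the one labelled MLT, and the intervals overlapped in the one labelled DEHP_MLT. Bcl2l1, which encodes BCL-XL, differed little, at 0.192 and 0.24 in germ cells, 0.285 and 0.335 in granulosa cells and 0.193 and 0.222 in stroma cells, and no pair of classes was 2-fold apart.

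The effectors divided the classes in opposite ways. Bax was 2.6 (2.49 to 2.7) and 2.63 (2.58 to 2.68) in germ cells, 1.23 and 1.19 in granulosa cells and 0.887 and 0.974 in stroma cells. Germ cells were therefore 2.09-fold and 2.19-fold above granulosa cells and 2.9-fold and 2.68-fold above stroma cells. Bak1, the second pore former, was 0.0575 and 0.059 in germ cells, 0.344 and 0.314 in granulosa cells and 0.222 and 0.269 in stroma cells. Germ cells were the lowest of these 3 classes for Bak1 with intervals apart in both libraries, and the level in granulosa cells was 5.24-fold and 4.69-fold higher.

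Bax was higher and Bcl2 lower in germ than in granulosa and stroma cells, and Bax is a known p53 target, so their promoters are shown. The sequences are from RefSeq on build GRCm38.p6, which is not the build the authors named (mm9), and each runs 5′ to 3′ on the strand of the gene over the 250 bases before its start. Bax lies at chr7:45466899-45467148 and Bcl2 at chr1:106714291-106714540, both on the minus strand, and capitals mark a match to the p53 consensus decamer.
Bax: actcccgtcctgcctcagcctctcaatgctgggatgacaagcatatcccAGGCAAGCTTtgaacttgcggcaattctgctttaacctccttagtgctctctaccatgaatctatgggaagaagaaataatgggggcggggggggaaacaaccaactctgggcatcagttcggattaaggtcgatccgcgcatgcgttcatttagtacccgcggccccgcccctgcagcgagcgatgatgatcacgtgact
Bcl2: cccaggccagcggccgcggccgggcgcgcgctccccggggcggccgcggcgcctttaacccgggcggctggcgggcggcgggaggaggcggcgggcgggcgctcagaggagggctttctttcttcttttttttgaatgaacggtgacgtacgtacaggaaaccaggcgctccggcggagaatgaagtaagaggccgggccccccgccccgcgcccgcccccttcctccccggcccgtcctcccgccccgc
The decamer, searched on both strands, began 201 bases before the start of Bax. It was found in none of the other 12 windows of these genes, and in 7.13% of all 32851 promoter windows of the same length. The E-box CANNTG, also the same on both strands, was in 7 of the 13 windows of the family and in 66.2% of all windows. Of the 10 genes 8 had a window, and Bcl2l10 and Pmaip1 are named only. GC content was 54.0% in the Bax window and 74.8% in the Bcl2 window. A match describes the letters of a window and not a bound site.

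The BH3-only genes were spread over the classes rather than shared by them. Bcl2l11, which encodes BIM, was highest in stroma cells, at 0.317 and 0.241, against 0.135 and 0.098 in granulosa cells and 0.11 and 0.0679 in germ cells. Stroma cells were above both other classes with intervals apart in each library. Bid, whose product caspase 8 cleaves to link death receptors with mitochondria, was 0.104 and 0.102 in germ cells, 0.106 and 0.109 in granulosa cells and 0.0337 and 0.0146 in stroma cells. Its germ and granulosa intervals overlapped in both libraries, and stroma cells lay below both.

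Bbc3 and Pmaip1 encode PUMA and NOXA, the BH3-only proteins known as p53 family targets. Bbc3 stood at 0.123 and 0.0769 in germ cells, 0.0991 and 0.115 in granulosa cells and 0.0364 and 0.0502 in stroma cells. Granulosa cells were above stroma cells by 2.35-fold and 2.08-fold, and the order of germ and granulosa cells differed between the libraries. Without the cell of each library with the most Pmaip1 UMIs, Bbc3 in germ cells was 0.06 and 0.077, below granulosa cells in both. Pmaip1 was 0.0607 (56 UMIs) and 0.0197 (87 UMIs) in germ cells, against 0.00481 and 0.00267 in granulosa cells (8 and 3 UMIs) and 0.00442 and 0.00546 in stroma cells (13 and 15 UMIs). Germ cells were highest for Pmaip1 among the 3 classes, but in the library labelled MLT 1 cell held most of the germ-cell UMIs, and the call against granulosa cells ends without the top cells (described below).

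Within germ cells, Bcl2l10 went with oocyte growth genes. Germ cells of each library were split at the median of their summed level of Zp1, Zp2, Zp3, Gdf9, Bmp15, Npm2 and Nlrp5, which encode zona pellucida proteins and products of growing oocytes. This is a range of a score and not a cell type, and 21 and 74 cells lay near the median. Bcl2l10 was 0.3 above the median and 0.156 below it in the library labelled MLT, and 0.236 and 0.106 in the library labelled DEHP_MLT, log2 ratios of 0.91 and 1.09. At least 1.5-fold with intervals apart in that direction were 2.87% of all genes in the former and 6.89% in the latter. When germ cells with granulosa markers were left out the ratios were 0.90 and 1.05. Bax was lower above the median, at 2.29 against 2.87 and 2.4 against 2.85, short of 1.5-fold in both libraries.

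**Figure D2:**
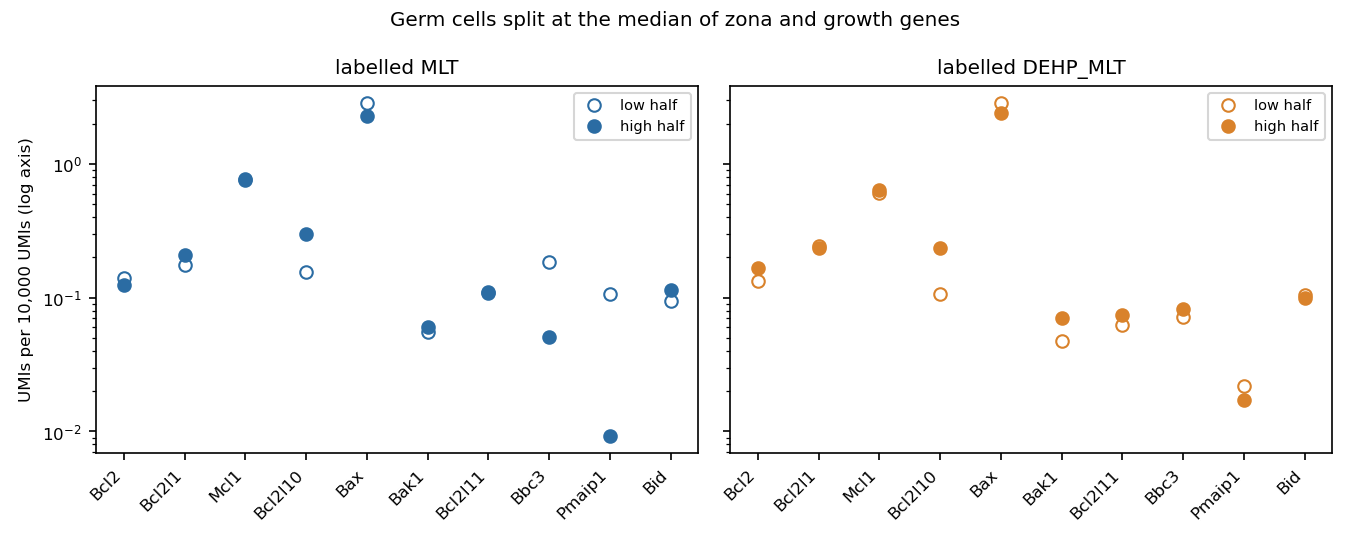
Levels of the 10 genes (UMIs per 10,000 UMIs, log axis) in germ cells above (filled) and below (open) the median of zona and growth genes in each library, with 108 and 108 cells labelled MLT and 354 and 353 labelled DEHP_MLT. Bcl2l10 is higher above the median in both panels, and the Bbc3 and Pmaip1 points below the median in the left panel (0.186 and 0.106) fall to 0.0683 and 0.0331 without 1 cell.

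Some germ cells passed a cut for granulosa markers, and in the library labelled DEHP_MLT Bcl2 and Bak1 were higher in these. In the library labelled DEHP_MLT, 203 of 707 germ cells had at least 1 UMI of granulosa markers per 10,000. Bcl2 was 0.26 in them and 0.119 in the other 504, a log2 ratio of 1.06. Bak1 was 0.143 in the 203 cells and 0.0361 in the 504, a log2 ratio of 1.73. In that direction 20.8% of genes were at least 1.5-fold apart with intervals apart. In the library labelled MLT 67 of 216 germ cells passed the cut, with a median of 6243 UMIs against 31146 in the others. A cell below 10,000 UMIs passes with 1 marker UMI, so marker content and depth cannot be told apart there. Bcl2 was 0.195 in cells past the cut and 0.123 in the others, with overlapping intervals. Bak1 was 0.0794 in cells past the cut and 0.0536 in the others, also overlapping. Whether these barcodes hold 2 cells was not tested. With these cells left out, all 6 calls between germ and granulosa cells and all 7 between germ and stroma cells remained, and Pmaip1 joined the latter as higher in germ cells.

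The comparison of the libraries asked what differs with DEHP when melatonin is given. A gene was called where its levels were at least 1.5-fold apart with intervals apart. In germ cells 3 of 10 were, Bcl2l11, Bbc3 and Pmaip1, each lower in the library labelled DEHP_MLT, against 6.4% of 14601 genes in either direction and 3.92% in this one. In granulosa cells 0 of 9 genes with enough UMIs were (9.31% of 13720 genes), and in stroma cells 1 of 9, Bid, which was lower (10.7% of 14495 genes, and 9.37% in this direction). The median log2 ratio, DEHP_MLT over MLT, was -0.16 over the 10 genes and -0.06 over all genes in germ cells, 0.04 and -0.12 in granulosa cells, and 0.07 and -0.14 in stroma cells. In germ cells the median over the 10 genes was -0.0065 without the cell of each library with the most Pmaip1 UMIs. Haemoglobin RNA moved with the libraries too: the 4 erythroid markers summed to 1.17 and 28.0 per 10,000 in germ cells, 1.6 and 28.6 in granulosa cells and 1.77 and 21.4 in stroma cells. With mitochondrial, ribosomal and haemoglobin genes left out of the total, Bcl2l11, Bbc3 and Pmaip1 in germ cells and Bid in stroma cells were again past the threshold and no member was in granulosa cells.

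**Figure D3:**
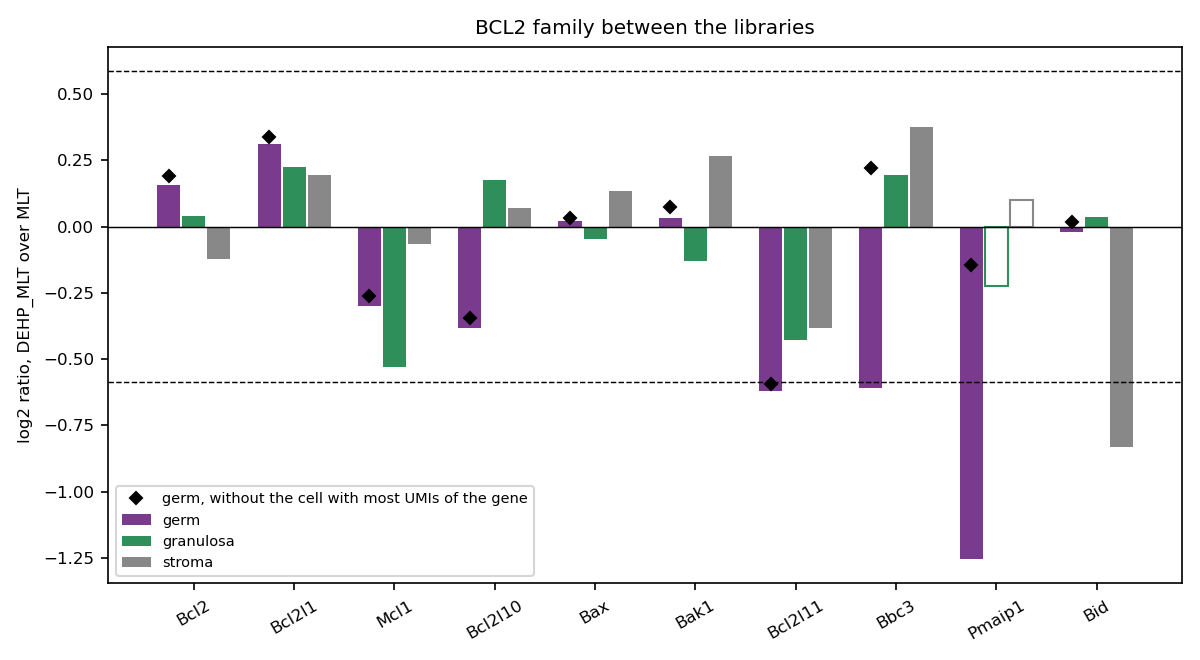
Log2 ratio of the level in the library labelled DEHP_MLT over that labelled MLT for the 10 genes in germ, granulosa and stroma cells (bars, 0.01 per 10,000 added to both levels, open where fewer than 30 UMIs were counted), with dashed lines at 1.5-fold. Diamonds give the germ-cell ratio without the cell of each library that held the most UMIs of the gene, where Bbc3 changes sign and Pmaip1 moves to -0.14.

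The Pmaip1 and Bbc3 differences rested on 1 germ cell. Pmaip1 had a log2 ratio of -1.25 and Bbc3 of -0.61 in germ cells. A single germ cell labelled MLT, with 53667 UMIs, held 36 of the 56 Pmaip1 UMIs (64.3%) and 58 of the 113 Bbc3 UMIs (51.3%) of its class. No other germ cell of that library had more than 3 Pmaip1 or 4 Bbc3 UMIs, as raw counts not scaled to depth. A shallower cell, with 12304 UMIs in total, held 2 Pmaip1 and 4 Bbc3 UMIs.

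Without the cell of each library that held the most Pmaip1 UMIs, Pmaip1 was 0.0218 and 0.0188 and Bbc3 0.06 and 0.077. The log2 ratios became -0.14 and 0.31, and none of the 10 genes was then past 1.5-fold in germ cells. Bcl2l11 lay close to the threshold, at 0.11 (101 UMIs) and 0.0679 (300 UMIs), a log2 ratio of -0.62 with that cell and -0.57 without it. It was read in many cells, since its highest cell held 3.96% of its UMIs in the library labelled MLT.

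The same cell was high in further p53 targets. It held 282 of 962 Mdm2 UMIs (Mdm2 is the p53 ubiquitin ligase), a level of 52.5 per 10,000 against 0.742 in the other germ cells of the library. It held 72 of 213 Cdkn1a UMIs (the cell cycle inhibitor p21), 13.4 against 0.154, and 45 of 307 Perp UMIs (a p53 target of the cell membrane), 8.39 against 0.286. The p53 target Bax was not high in it. Its Bax count was 4 of 53667 UMIs, where the other germ cells of the library had 2.61 per 10,000. Its Fas count was 0, but Fas stood at 0.00327 per 10,000 in the others, too rare to tell. It held 2 UMIs of Trp63 and 8 of Trp53, which belong to the p53 family itself. Those genes were 0.372 and 0.365 per 10,000 in the others. Of the other BCL2 members, this cell held 26 of 709 Mcl1 and 4 of 101 Bcl2l11 UMIs. Mcl1 and Bcl2l11 were 0.745 and 0.106 per 10,000 in the others. It held no UMI of Bcl2, Bcl2l1, Bak1 or Bid, genes at 0.193 per 10,000 or less in the others. It carried 41 Dazl, 22 Sycp3 and 11 Figla UMIs and 1.18% mitochondrial UMIs, and these genes were picked after their values were seen. The shallower germ cell labelled MLT, with 12304 UMIs, held 16 Mdm2 UMIs and 0 of Cdkn1a and Perp. No germ cell of the library labelled DEHP_MLT had more than 4 Pmaip1 or 17 Mdm2 UMIs.

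The library labelled DEHP_MLT had 3 germ cells with 10 or more Bbc3 UMIs, at 24, 23 and 11. These held 1, 3 and 0 Pmaip1 UMIs, 2, 9 and 3 Mdm2 UMIs and 1, 19 and 3 Cdkn1a UMIs. The cell with 23 Bbc3 UMIs also had the most Cdkn1a UMIs of the germ cells of its library. A UMI of Pmaip1 was seen in 17 of 216 and 66 of 707 germ cells, of Bbc3 in 37 and 185, and of both in 8 and 24. The depth of the libraries differs too much for these counts to be set against each other: at 5000 UMIs per cell, 1.36% (0.165% to 4.83%) and 1.13% (0.49% to 2.22%) held Pmaip1 and 4.76% (1.94% to 9.57%) and 3.54% (2.3% to 5.18%) held Bbc3, with overlapping Clopper-Pearson intervals.

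**Figure D4:**
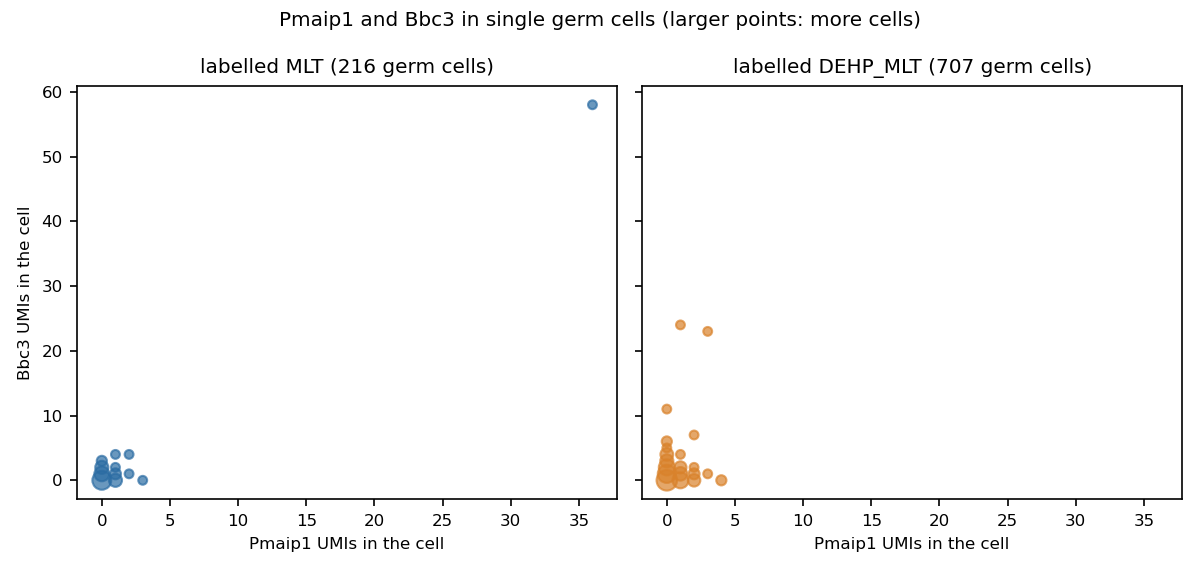
Pmaip1 and Bbc3 UMIs in each germ cell of the library labelled MLT (left) and DEHP_MLT (right), as raw counts, with larger points where more cells share a value. A single cell labelled MLT lies at 36 and 58 UMIs, and 3 cells labelled DEHP_MLT have 10 or more Bbc3 UMIs with at most 3 of Pmaip1.

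The other germ-cell values were closer. Mcl1 had a log2 ratio of -0.30, Bcl2l10 of -0.38 and Bcl2l1 of 0.31, all under 1.5-fold although the Poisson intervals of each were apart. Bax, Bak1 and Bid had ratios of 0.02, 0.03 and -0.02 and Bcl2 of 0.16, with overlapping intervals.

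In granulosa and stroma cells Mcl1 and Bid were furthest apart. Mcl1 was 2.27 (2.2 to 2.35) and 1.57 (1.5 to 1.65) in granulosa cells, a log2 ratio of -0.53 that is short of 1.5-fold, and 1.73 and 1.65 in stroma cells, a ratio of -0.06. The granulosa ratio passed 1.5-fold when cells of several gates were kept (-0.59) and with equal weight per cell (-0.73). Bid was 0.0337 (99 UMIs, 0.0274 to 0.041) and 0.0146 (40 UMIs, 0.0104 to 0.0198) in stroma cells, a log2 ratio of -0.83 with intervals apart. Bcl2l11 was lower in the library labelled DEHP_MLT in all 3 classes, at -0.43 in granulosa and -0.38 in stroma cells, and Bcl2l1 was higher in all 3, at 0.22 and 0.19. These granulosa and stroma values were all short of the threshold.

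MHC class II-high cells had at least 10 UMIs of H2-Ab1, H2-Aa, H2-Eb1 and Cd74 per 10,000, with at least 2 of these genes detected. They were 111 of 634 granulosa and 520 of 2768 stroma cells in the library labelled MLT. In the library labelled DEHP_MLT they were 0 of 346 and 0 of 2048. The summed level there was 0.0963 in granulosa cells and 0.0218 in stroma cells, against 7.68 and 7.79 in the library labelled MLT. Within the library labelled MLT, Bid was 0.061 in MHC class II-high stroma cells and 0.0273 in other stroma cells, a log2 ratio of 0.93. Bak1 was 0.489 in MHC class II-high granulosa cells and 0.305 in other granulosa cells of that library, a log2 ratio of 0.66. Genes past the threshold in that direction were 4.81% in stroma and 3.29% in granulosa cells. When the MHC class II-high cells were left out, the log2 ratio of Bid between the libraries in stroma cells was -0.60, down from -0.83 and just past 1.5-fold.

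Among genes downstream of the family, 6 of 20 caspase pathway genes were at least 2-fold apart between germ and granulosa cells in both libraries, against 44.1% of all genes. Of these 1 was higher and 5 were lower in germ cells, where 18.9% and 25.1% of all genes were. Between germ and stroma cells 3 were higher and 4 lower in germ cells (21.8% and 23.3% of all genes). Birc5, a caspase inhibitor also needed for cell division, was 5.11 and 4.56 in germ cells against 0.562 and 0.671 in granulosa cells. Casp8, the initiator that cleaves Bid, was 0.0347 and 0.0267 against 0.315 and 0.19, and Apaf1, which assembles the apoptosome, 0.0217 and 0.0265 against 0.109 and 0.0838. The most abundant caspase pathway genes were Birc5 in germ cells, Parp1 in granulosa cells of the library labelled MLT (1.84) and Vdac2 in stroma cells of that library (1.45).

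Of 14 further BCL2 relatives, of which 8 and 9 had enough UMIs in the respective libraries, 2 were higher and 3 lower in germ than in granulosa cells (18.9% and 25.1% of all genes). Bnip3 and Bnip3l, which mark mitochondria for removal, were higher in germ cells, at 0.807 and 0.969 against 0.15 and 0.191 for Bnip3 and 5.69 and 5.67 against 2.47 and 2.57 for Bnip3l. Bok, a further effector-like member, was 0.0521 and 0.0875 in germ cells against 0.683 and 0.747 in granulosa cells, and Bcl2l2 (BCL-W) 0.0477 and 0.0509 against 0.311 and 0.312. Of 12 p53 family and target genes, which include Bax, Bbc3 and Pmaip1, 5 were higher in germ than in granulosa cells and 0 lower, and 10 had enough UMIs in each library. One of the 5 is Pmaip1, whose call ends without the top cells because too few UMIs then remain in the library labelled MLT. Trp63, the p53 relative that guards oocytes, was 0.372 and 0.39 in germ cells against 0.0415 and 0.049 in granulosa cells, and Chek2, the kinase upstream of it, 0.259 and 0.199 against 0.0565 and 0.0606.

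Between the libraries, 6.4% of all genes were past the threshold in germ cells and 3.92% were lower. Of 9 relatives with enough UMIs 1 was past 1.5-fold, Bok, which was higher (0.0521 and 0.0875), and of 20 caspase pathway genes 1, Birc6, which was lower (1.12 and 0.729). Of 10 p53 genes 4 were lower, Mdm2, Atm, Bbc3 and Pmaip1. Without the cell described above only Atm, a DNA damage kinase, remained, at 0.337 and 0.211, and Mdm2 was 0.742 and 0.603. The lists had median log2 ratios of 0.08, -0.16 and -0.38, and of 0.07, -0.15 and 0.04 without that cell, against -0.06 over all genes. In granulosa cells (9.31% of all genes) Casp8 and Aifm1 of 20 caspase genes and Atm of 9 p53 genes were lower and Cdkn1a was higher. In stroma cells (10.7% of all genes) Aifm1 and Xiap of 20 caspase genes and Atm and Fas of 10 p53 genes were lower.

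Other ovarian cell types widened the range of several members. Mcl1 was highest in neutrophils, at 12.7 (14 cells) and 6.19 (26 cells), and in macrophages, at 5.77 (82 cells) and 5.89 (27 cells), and those intervals overlapped in the library labelled DEHP_MLT. Bak1 was highest in macrophages at 1.15 and 0.92, apart from the next class in the library labelled MLT and overlapping it in the other. Bax was 2.4 and 3.08 in macrophages, and these intervals overlapped those of germ cells. Bcl2l11 was 0.398 and 0.632 in macrophages, apart from stroma cells only in the library labelled DEHP_MLT. In endothelial cells it was 0.364 and 0.247, overlapping stroma cells in both libraries. Pmaip1 was 0.152 (13 UMIs) and 0.23 (8 UMIs) in macrophages, above germ cells with intervals apart in both libraries.

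In surface epithelium, Mcl1 was 1.96 and 1.17, a log2 ratio of -0.74 past the threshold, as were 11.4% of genes in these 268 and 314 cells. In macrophages Bcl2l1 was 0.55 and 1.09 (47 and 38 UMIs), a log2 ratio of 0.98, against 13.1% of genes. No member was past the threshold in the 139 and 93 endothelial cells (9.65% of genes) or the 70 and 73 perivascular cells (7.72% of genes). Bcl2 had the order granulosa, stroma, endothelial, surface and perivascular cells in both libraries, with overlapping intervals between neighbours from endothelial cells on.

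Erythroid cells, the red blood cell precursors found by markers that include Hba-a1, Hba-a2 and Alas2, had a BCL2 family make-up of their own and a level there depended on the total it was divided by. Bcl2l1, whose product keeps red cell precursors alive, took a larger share of the 10 genes' UMIs there than in the other 8 cell types in both libraries, 74.6% and 38.9%. Its level was 1.1 (44 UMIs in 33 cells labelled MLT) and 1.71 (1146 UMIs in 594 cells labelled DEHP_MLT) per 10,000 UMIs, the highest level of the 9 cell types with intervals apart in both libraries. Bbc3 was 0.864 (579 UMIs) in the erythroid cells labelled DEHP_MLT, also apart from the next class, and no cell held more than 8 of these UMIs. In the library labelled MLT the count was 3 UMIs, all in 1 cell.

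Of the 7 members with enough UMIs, 5 were higher in erythroid cells of the library labelled DEHP_MLT, as were 36.3% of 7751 genes. Haemoglobin transcripts took 81.1% of the erythroid UMIs labelled MLT and 44.4% of those labelled DEHP_MLT. Per 10,000 UMIs of other genes, a total chosen after seeing the data, Bcl2l1 was 5.81 and 3.08 and changed direction, from a log2 ratio of 0.63 to -0.92. Mcl1, Bax and Bbc3 kept theirs, at 2.27, 1.81 and 1.94 where 7.02% of genes were higher, and the counts behind them in the library labelled MLT were 2, 3 and 3 UMIs. Bcl2 was then past the threshold as lower, at 0.792 and 0.0805 (6 and 30 UMIs), as Bcl2l1 was, where 7.87% of genes were lower, and Bak1 (1 and 121 UMIs) was no longer past it.

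**Figure D5:**
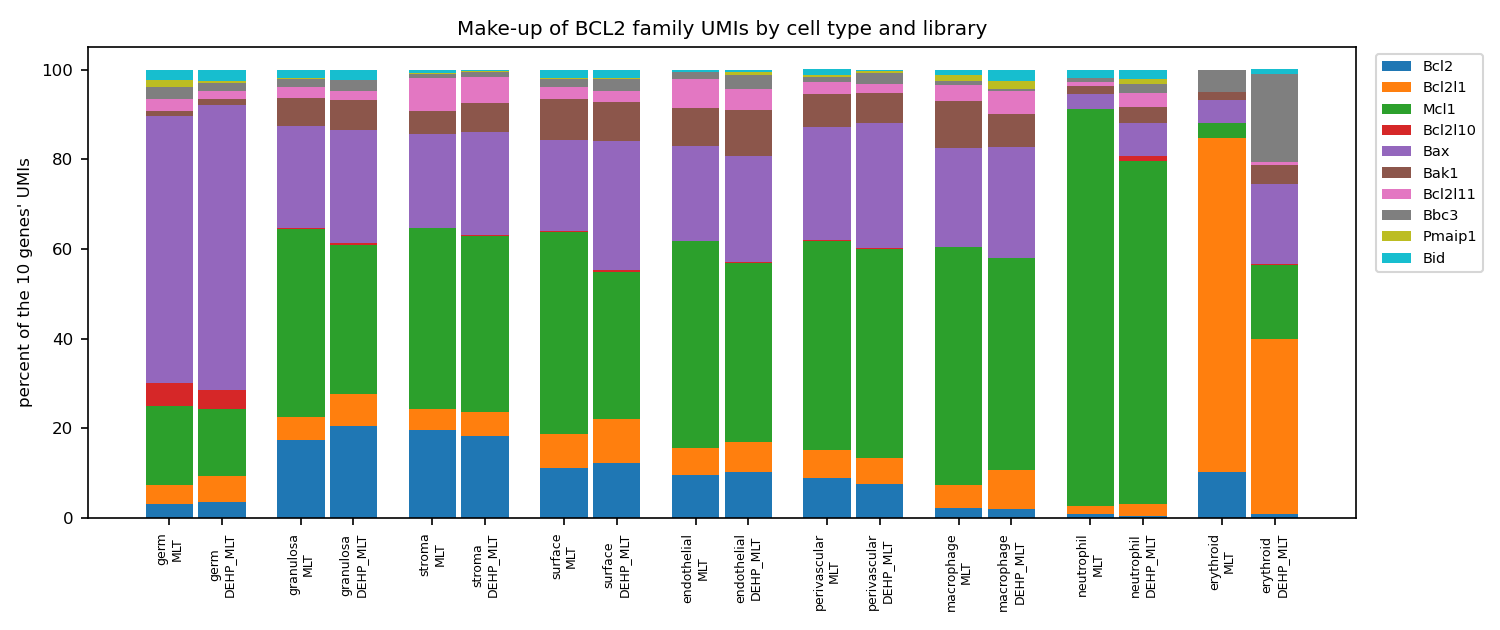
Share of each gene in the UMIs of the 10 genes (percent, stacked bars from 0) in 9 cell types, with the library labelled MLT and the library labelled DEHP_MLT side by side. Bax takes 59.4% and 63.6% in germ cells, Mcl1 88.5% and 76.6% in neutrophils, and Bcl2l1 74.6% and 38.9% in erythroid cells.

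The genes whose levels ran most like those of a member were found over 6 levels (3 classes by 2 libraries) by Pearson's r of log2 levels, among 9032 genes with at least 0.2 UMIs per 10,000 in one of them. This was done for members with at least a 4-fold range. The 3 closest were Synpo, Rgs10 and Zfp30 for Bcl2, Ptrhd1, Arpc5l and 2700062C07Rik for Bcl2l10, and Echdc2, Glis2 and Ergic1 for Bak1. For Bcl2l11 they were Myo6, Cpne1 and Pabpc1, for Bid Avpi1, Ebag9 and Ypel2, and for Pmaip1 Hspa2, Setd1b and Spout1. Pmaip1 rests on the single cell here too. All r lay between 0.9833 and 0.9996, over 6 points that share libraries and depth. Bcl2l1, Mcl1, Bax and Bbc3 varied less than 4-fold over the 3 classes.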

How the data were processed

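Per the submitters' processing notes, Cell Ranger (no version stated) and Seurat 4.2.0 were used with build mm9. The authors deposited 1 table of raw counts per library, UMI counts per gene and barcode with no normalization. Barcodes were dropped below 500 genes or above 20% mitochondrial UMIs, which kept 5199 of 5277 labelled MLT and 4819 of 4819 labelled DEHP_MLT. The libraries held 80657690 and 117355739 UMIs.

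A cell joined a class with at least 5 UMIs of its markers and a minimum summed level per 10,000 UMIs, which was 8 for germ cells, 5 for granulosa cells and 30 for stroma cells, with 2, 2 and 3 markers detected. Cells passing several gates (296 and 382) or none (679 and 209) were left out. Doublets were not called beyond this. The gate values were chosen after the data were seen, and the members and lists with earlier results of these data known.

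UMIs were summed per class and library and given per 10,000, with exact Poisson 95% intervals, and log2 ratios after adding 0.01. A call between libraries needed at least 1.5-fold and intervals apart, a call between classes at least 2-fold, intervals apart and the same direction in both libraries, and either needed 30 UMIs over both groups. For shares of cells, each cell was thinned to 5000 UMIs. All 10 members are named; of the lists, up to 4 genes furthest apart and the most abundant, although some listed genes are not reported here by name. Calls were checked on simulated class sums with known changes of a single size and counting error only. Spread between cells and changes near the thresholds were not covered by this check. Python 3.11.15, numpy 2.4.6, scipy 1.17.1, pandas 2.3.3, scanpy 1.11.5, igraph 0.11.9 (Leiden clusters) and edgeR 4.0.16 (TMM factors) were used. The alternatives were a stricter gate, Leiden clusters, cells of several gates kept, a shared UMI floor, equal weight per cell and TMM factors. Further ones were other totals, no UMI minimum and another fold. MHC class II-high cells, germ cells past the cut for granulosa markers, or single top cells were also left out in turn. The last 2 were added after seeing the data.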

Additional observations from a re-analysis of the deposited data

How the results depend on the processing

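No paired analysis was possible because each group is 1 library. The count of 3 members past the threshold in germ cells became 1, Pmaip1, with a stricter gate, with equal weight per cell, with TMM factors and with a 2-fold threshold, and 1, Bcl2l11, without the cell of each library with the most UMIs of the member. In that last setting the Bbc3 log2 ratio was 0.22 and reversed. Over all 11 alternatives the germ-cell call was kept in 6 for Bcl2l11, 5 for Bbc3 and 10 for Pmaip1. Calls of Bcl2l11 and Bbc3 were thus also lost in settings not named here. The granulosa count of 0 became 2, Mcl1 and Bcl2l10, when cells passing several gates were kept and 1, Mcl1, with equal weight per cell. The stroma count of 1 became 2, Bbc3 and Bid, when those cells were kept and 0 with a 2-fold threshold. TMM factors moved the median log2 ratio of all genes from -0.06 to 0.03 in germ cells, from -0.12 to -0.02 in granulosa cells and from -0.14 to 0.05 in stroma cells. The class contrasts kept 5 to 7 calls between germ and granulosa cells, 7 to 8 between germ and stroma cells and 2 to 3 between granulosa and stroma cells. The causes were not tested. Depth limits Pmaip1 most, with 8 and 3 UMIs in granulosa cells.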
